A study of Sus scrofa with 35 samples.

Results

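The genes described here encode the superoxide, peroxide and thioredoxin enzymes of the blood, together with the transcription factor that controls many of them. They are SOD1, SOD2, CAT, GPX1, GPX3, GPX4, GSR, TXN, TXNRD1 and NFE2L2. A probe belonged to them when its gene name in the scanner files was one of these symbols, whatever its measured value. The 10 genes, of 8601 with a known symbol in the table of values, had 58 probes of 60305 in the scanner files and 56 of the 39072 probes in the authors' table of log2 values. The SOD2 probe O14696 and the TXNRD1 probe A_72_P177956 were outside that table and were well above background on 2 and 1 of the 35 arrays, respectively. Of the 56 probes, 51 were well above background on every array.

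The 35 animals were castrated male growing pigs, with 1 array of whole blood each. Creole (CR) pigs are a local Caribbean breed and Large White (LW) pigs a commercial breed, and F1 pigs are the cross of both. Pigs under thermoneutral (TN) conditions were kept at 24 °C, and pigs under heat stress (HS) had been exposed to a warmer room temperature, given as 30 °C in the sample names and as 32 °C in the protocol text, for 5 d by the labels. The groups were CR TN (5 pigs), CR HS (6), F1 TN (6), F1 HS (6), LW TN (6) and LW HS (6). According to the methods of the study, TN pigs were slaughtered before the temperature was raised, some HS pigs had 1 day less of heat, and each pen held pigs of 1 breed from different litters, with littermates spread over pens. With TN pigs slaughtered first, climate cannot be told apart from the order of slaughter or from the age of the pigs at slaughter. The labels give neither pen, parent nor day, and the p-values treat all pigs as independent.

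Aerobic cells form superoxide, mainly at the mitochondrial respiratory chain and, in phagocytes, at the NADPH oxidase. Superoxide dismutases turn it into hydrogen peroxide, which catalase, glutathione peroxidases and peroxiredoxins then reduce to water. Glutathione reductase and thioredoxin reductase restore the reduced partners with NADPH, and the transcription factor NRF2, the product of NFE2L2, switches on many of these genes when its inhibitor KEAP1 is oxidized. Red cells carry large amounts of catalase and GPX1, which protect haemoglobin. Whole blood mixes RNA of immature red cells, platelets and white cells, and with such bulk RNA fewer cells of a type and less RNA per cell cannot be told apart.

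A few probes of 60 bases are printed so that their target can be checked. They were selected from probes that lie in coding sequence as far as is known. The first pair shows NFE2L2 probe O8761, which fell under HS, and A_72_P229977, whose estimate had the opposite sign and did not pass:
NFE2L2 O8761: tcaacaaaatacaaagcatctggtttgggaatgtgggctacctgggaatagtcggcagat
NFE2L2 A_72_P229977: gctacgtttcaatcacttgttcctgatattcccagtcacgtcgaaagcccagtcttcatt
The GPX3 probes A_72_P637182 and O9216 both passed the test under HS:
GPX3 A_72_P637182: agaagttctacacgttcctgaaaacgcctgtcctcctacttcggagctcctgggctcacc
GPX3 O9216: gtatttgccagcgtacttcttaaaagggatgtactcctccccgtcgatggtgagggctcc
In the TXN pair the capitals mark the 59 bases that are the reverse complement of each other:
TXN A_72_P177678: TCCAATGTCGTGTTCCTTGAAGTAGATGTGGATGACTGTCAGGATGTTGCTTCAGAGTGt
TXN O7867: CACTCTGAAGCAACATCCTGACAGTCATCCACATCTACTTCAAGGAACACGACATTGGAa
CAT, GPX4 and TXNRD1 are each shown by a coding probe that passed the test under HS:
CAT A_72_P643147: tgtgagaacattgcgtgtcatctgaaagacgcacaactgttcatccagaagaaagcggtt
GPX4 A_72_P646221: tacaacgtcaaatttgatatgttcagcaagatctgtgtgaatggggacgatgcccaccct
TXNRD1 A_72_P455657: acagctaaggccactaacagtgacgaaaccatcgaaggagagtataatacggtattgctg

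Probes whose name starts with O and probes whose name starts with A_72 came from different parts of the design, and for TXN they lie on opposite strands. Over the whole array, 1021 of the 9532 O probes shared at least 20 bases with an A_72 probe of the same gene name, and 60 of them (5.9%) did so on the opposite strand only. NFE2L2 O8761 and GPX3 O9216 shared no such run with any probe, so the array itself does not tell their strand. From background knowledge of both proteins, their reverse complements rather than the printed letters read as coding sequence. No pig transcript was used here to check this, and what these O probes measured is therefore uncertain. The genes were represented by their brightest probe in the table, which for NFE2L2 is O8761.

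Over all 35 pigs, 24 of the 56 probes differed between HS and TN after Benjamini-Hochberg adjustment of the limma test, 11 higher and 13 lower under HS. Of all 39072 probes, 34.8% passed the same test (20.1% higher and 14.7% lower). The median HS minus TN difference was -0.24 on the log2 scale over the 56 probes and 0.06 over all probes. The calls differed by gene. All 5 GPX4 probes and 5 of 6 TXNRD1 probes rose, and NFE2L2 had 1 probe in each direction. Of CAT 9 of 10 probes fell, of GPX3 2 of 6 and of TXN 1 of 5. That TXN probe, O7867, lies on the opposite strand of the brightest TXN probe. No probe of SOD1 (5 probes), SOD2 (8), GPX1 (6) or GSR (2) passed the test. Without the F1 pigs none of the 56 probes passed (12 at an unadjusted p under 0.05), and neither did any of the 39072 probes. The unadjusted share of all probes is not given for that fit, so the 12 are not read as particular to these genes. Some probes share 1 sequence, and with each distinct sequence counted once 23 of 53 passed. At an unadjusted p under 0.05 there were 32 of 56 member probes and 46% of all probes.

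**Figure D1:**
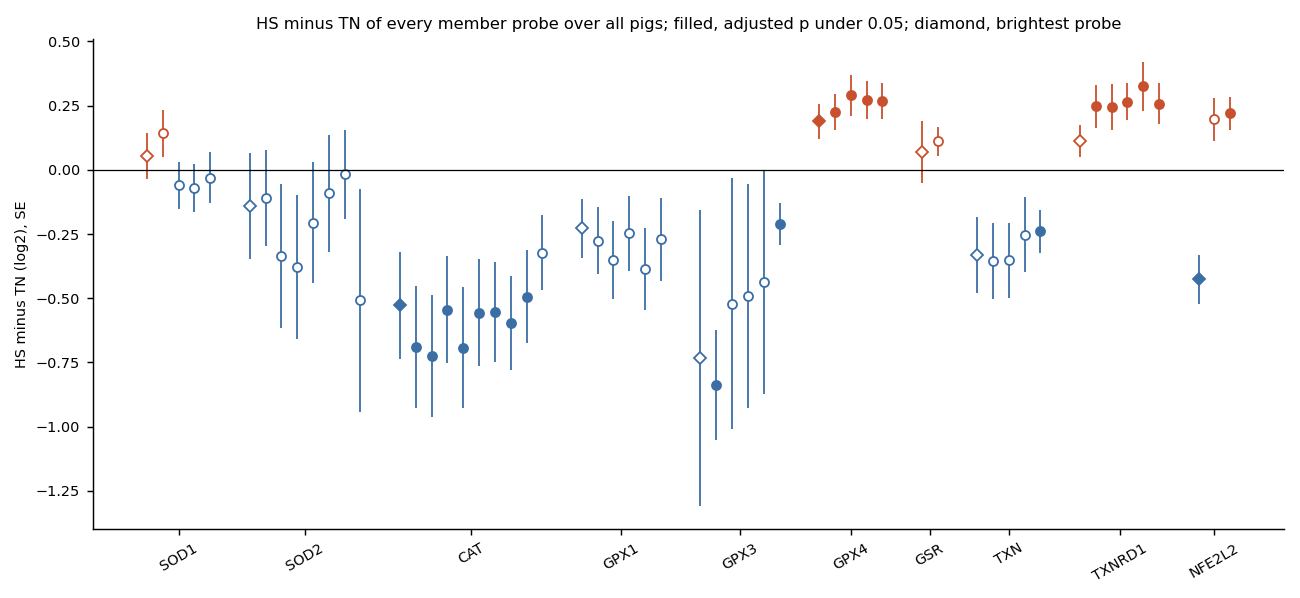
HS minus TN difference (log2, y axis) of each of the 56 probes, grouped by gene along the x axis, with the standard error (SE) of the limma fit as bars. Filled symbols had an adjusted p under 0.05 and diamonds are the brightest probe of a gene. The GPX4 and TXNRD1 probes lie above 0, the CAT, GPX1, GPX3 and TXN probes below 0, and the NFE2L2 probes on both sides.

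No probe of the superoxide dismutases passed the test for HS against TN. SOD1, the copper and zinc enzyme of the cytosol, read 12.07, 11.61, 12.22, 12.14 and 12.17 in the CR TN pigs. The lowest, median and highest values of CR HS pigs were 11.40, 12.06 and 12.18. F1 pigs had 11.39, 11.92 and 12.29 under TN and 11.67, 12.25 and 12.37 under HS. TN and HS values overlapped in these breeds and in LW pigs, which had 11.63, 12.11 and 12.27 under TN and 11.82, 12.03 and 12.25 under HS. The difference between HS and TN was 0.05 ± 0.09 (log2, SE; adjusted p = 0.668), with a 95% interval from -0.12 to 0.23, and the SOD1 probes ranged from -0.07 to 0.14.

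SOD2, the manganese enzyme of mitochondria, differed by -0.14 ± 0.21 under HS (adjusted p = 0.618). All 8 of its probes had a negative estimate, from -0.51 to -0.02, and none passed the test. The brightest probe ranged from 9.08 to 11.29 over the 35 pigs, a 4.61-fold range, with both extremes among the CR TN pigs.

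One SOD2 probe separated the pigs in another way. A_72_P444413 read between 4.74 and 5.48 in 18 pigs and between 6.98 and 9.56 in the other 17, with no pig in the 1.51 log2 units between them. The higher set held 11 of 12 LW pigs, 3 of 11 CR pigs and 3 of 12 F1 pigs. Both climates contributed, with 5 LW TN, 6 LW HS, 2 CR TN, 1 CR HS, 2 F1 TN and 1 F1 HS pigs. Among those 17 pigs the probe followed the brightest SOD2 probe closely (Pearson r 0.91, Spearman rho 0.91, given as a description). Pigs of both sets covered a similar span on the brightest probe, from 9.46 to 11.29 in the higher set and from 9.08 to 10.82 in the lower. The CR minus LW difference of A_72_P444413 was -1.79 ± 0.54 (adjusted p = 0.111) and F1 minus LW was -2.10 ± 0.53 (adjusted p = 0.199), neither past the threshold. For the brightest SOD2 probe the same contrasts were -0.15 ± 0.26 and -0.41 ± 0.25. A_72_P444413 was well above background on 20 of the 35 arrays, so its lower values lie near background and their order is uncertain. In the 18 pigs of the lower set it still correlated with the brightest SOD2 probe (Pearson r 0.64, Spearman rho 0.65, given as a description).

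**Figure D2:**
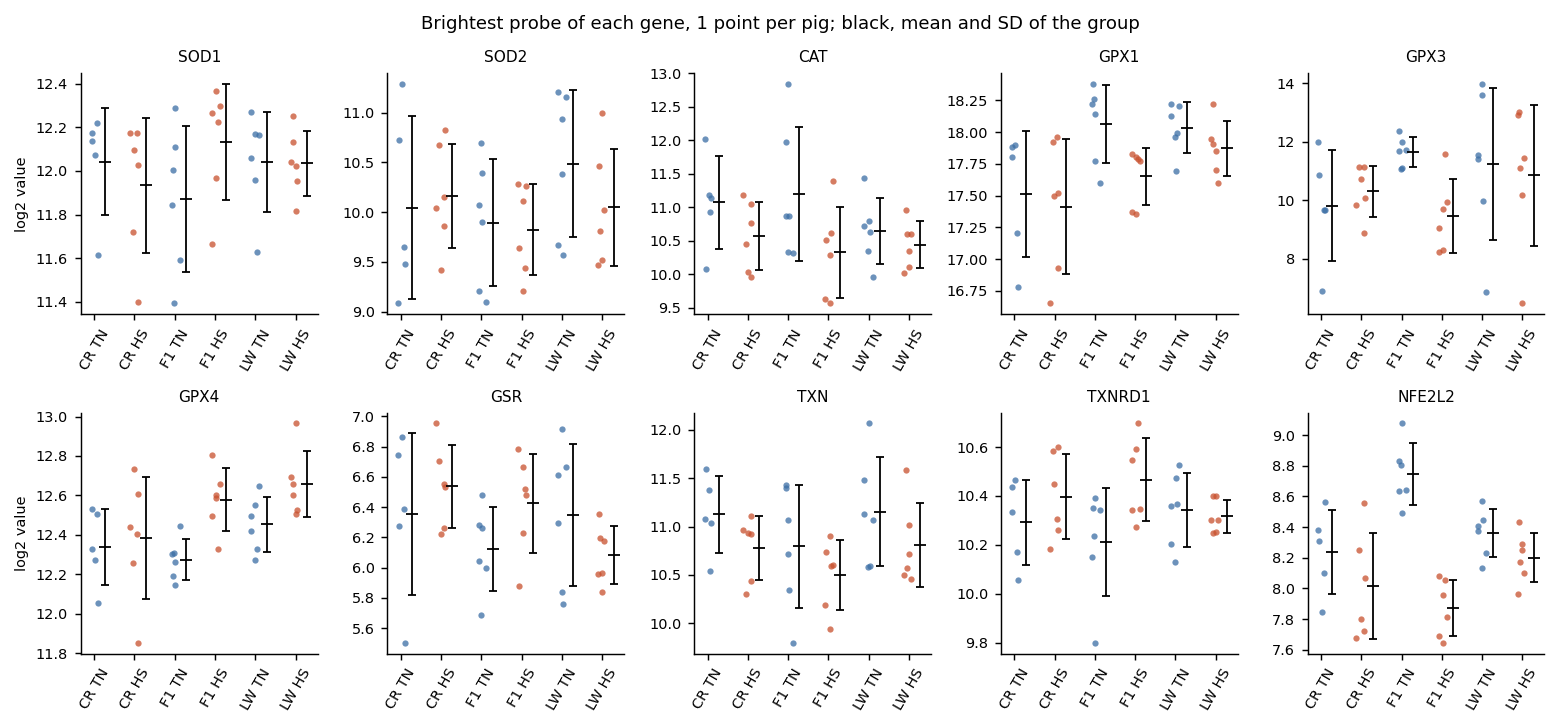
Log2 values (y axis) of the brightest probe of each of the 10 genes in the 6 groups (x axis), with 1 point per pig, blue for TN and orange for HS, and the group mean with SD in black. NFE2L2, shown by probe O8761 of uncertain strand, is in F1 pigs the only panel and breed in which the TN and HS points do not overlap.

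Catalase, the haem enzyme that splits hydrogen peroxide, was lower under HS. Its brightest probe read 11.19, 11.14, 10.93, 12.01 and 10.09 in the CR TN pigs, against a lowest, median and highest value of 9.95, 10.61 and 11.18 in CR HS pigs. The F1 TN pigs had 10.33, 10.87 and 12.84 and the F1 HS pigs 9.56, 10.39 and 11.39. In LW pigs the values were 9.96, 10.68 and 11.43 under TN and 10.02, 10.47 and 10.96 under HS. All groups overlapped, and 15 of 18 HS pigs were not above the TN mean of their breed. The difference of -0.53 ± 0.21 was just past the threshold (adjusted p = 0.0475). With single pigs left out the estimate was from -0.60 to -0.41, and the call was lost in 22 of 35 such fits. Of the other 9 CAT probes 8 passed, and the 10 estimates were from -0.72 to -0.32. The probes read the pigs alike, with a Pearson r of at least 0.85 in each of 45 pairs. The lowest adjusted p, 0.0128, belonged to A_72_P579607 (-0.60 ± 0.18). Within F1 pigs, 3 CAT probes fell and the brightest differed by -0.87 ± 0.36 (adjusted p = 0.0516). The 5 slides on which the arrays were printed each held both climates, and within them the difference of the brightest probe was from -1.17 to 0.071, negative in 3.

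CAT moved with markers of red cells. A list of 24 erythroid genes had 17 in the table, of which 9 fell under HS, 1 (SLC4A1) rose and 16 had a negative estimate. Its mean log2 level under TN and HS, respectively, was 10.79 and 10.28 in CR pigs. For F1 it was 11.18 and 10.11, and for LW 10.93 and 10.53. Single CR pigs lay between 10.03 and 11.49 under TN and between 9.46 and 11.24 under HS, F1 pigs between 10.21 and 12.40 and between 9.07 and 10.75, and LW pigs between 10.52 and 11.44 and between 9.86 and 11.07. Each of the 17 genes was well above background on at least 34 arrays. Most of them, SLC4A1 (O801) included, were read by O probes, whose strand was not checked for this list. The lists of neutrophil (10 genes measured), platelet (5) and cytotoxic cell markers (5) held no gene that passed, and 2 of 7 monocyte, 2 of 7 T cell and 2 of 5 B cell genes rose. All 10 neutrophil estimates were negative, as were 3 of 5 cytotoxic, 3 of 7 monocyte and 2 of 7 T cell estimates. Of the platelet and B cell estimates 0 were negative. Of the brightest probes of all genes with a known symbol, 22.7% rose and 16.8% fell. Within groups, the CAT level correlated with that mean over the 35 pigs (Pearson r 0.85, Spearman rho 0.88, both with permutation p = 1e-05, the smallest that 100000 resamples can give, and adjusted p = 0.0001 over 10 genes). Without the 2 pigs farthest from the median of the list r was 0.81, and within the 4 slides of at least 7 arrays it was 0.52, 0.90, 0.96 and 0.87. With the list mean as a covariate, the CAT difference was 0.10 ± 0.13 (adjusted p = 0.70) and no probe of the 10 genes passed (6 at an unadjusted p under 0.05). Of members other than CAT, NFE2L2 A_72_P055361 had 0.18 ± 0.07 (0.22 without the covariate), O8761 -0.24 ± 0.09 (-0.43), GPX4 A_72_P646221 0.20 ± 0.09 (0.29) and TXNRD1 A_72_P455657 0.21 ± 0.11 (0.33). The brightest probes of GPX3 (0.01 ± 0.64, -0.73 without the covariate), TXN (-0.13 ± 0.16, -0.33), TXNRD1 (0.02 ± 0.07, 0.11) and GPX4 (0.094 ± 0.07, 0.19) shrank more. Those of GPX1 (-0.16, -0.23) and GSR (0.06, 0.07) changed less, and those of SOD1 (0.10, 0.05) and SOD2 (-0.28, -0.14) grew. Under that covariate, 2 probes of all 39072 passed, against 13601 without it, and their unadjusted share is not given here.

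Glutathione peroxidases did not share a direction. GPX1, the cytosolic selenoenzyme, had values of 17.90, 16.78, 17.20, 17.88 and 17.80 in CR TN pigs and a lowest, median and highest of 16.65, 17.51 and 17.96 in CR HS pigs. F1 pigs had 17.60, 18.19 and 18.38 under TN and 17.35, 17.78 and 17.83 under HS, and all 6 F1 HS pigs were below the F1 TN mean. The LW values were 17.69, 18.06 and 18.23 under TN and 17.60, 17.88 and 18.23 under HS. The pooled difference was -0.23 ± 0.11 (adjusted p = 0.115), and all 6 GPX1 probes were negative (-0.38 to -0.23). Within F1 pigs, 4 of 6 probes fell, by up to 0.82 on the log2 scale (A_72_P684140, adjusted p = 0.0151). The size of the GPX1 difference depended on the scaling. With the processed signal scaled to its 75th percentile instead, the brightest probe differed by -0.44 over all pigs (adjusted p = 0.034) and by -1.07 in F1 pigs (adjusted p = 0.002). That percentile averaged 149.9 on F1 TN and 237.9 on F1 HS arrays, and its part in the larger difference was not tested.

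GPX1 had the smallest adjusted p of the members for CR minus LW. This difference was -0.48 ± 0.14 for the brightest probe (adjusted p = 0.0921) and from -0.67 to -0.48 over the 6 probes. No probe of the 10 genes passed for CR minus LW (8 at an unadjusted p under 0.05, against 10.1% of all probes), where 1.08% of all probes did. Those 8 included all 6 GPX1 probes. Weighting the arrays by their quality brought 7 of the 56 probes past the threshold in this contrast, and leaving out 1 pig brought up to 5. The share of all probes under these settings is not given here, so these counts are not read as particular to the 10 genes.

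GPX3, the secreted plasma peroxidase, had the widest range between pigs among the 10 brightest probes. Its brightest probe, A_72_P666610, read 6.88, 9.65, 9.67, 11.99 and 10.85 in CR TN pigs and 8.89, 10.39 and 11.15 (lowest, median and highest) in CR HS pigs. The F1 values were 11.06, 11.72 and 12.38 under TN and 8.21, 9.37 and 11.58 under HS. In LW pigs they were 6.86, 11.49 and 13.97 under TN and 6.46, 11.27 and 13.04 under HS. From the lowest to the highest pig this was a 182-fold range, and both ends were LW pigs. Over all pigs the difference under HS was -0.73 ± 0.58 (adjusted p = 0.324). Leaving out F1 pigs it was 0.04.

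The test was passed by other GPX3 probes. Probe A_72_P637182 read 9.10, 10.26, 9.73, 10.57 and 9.87 in CR TN pigs and 8.39, 9.32 and 10.32 in CR HS pigs. F1 TN pigs had 10.37, 10.58 and 11.03 and F1 HS pigs 7.97, 9.19 and 9.91, with no overlap. LW pigs had 9.50, 10.02 and 11.30 under TN and 9.47, 9.83 and 10.53 under HS. It fell under HS, with a log2 difference of -0.84 ± 0.21 over all pigs (adjusted p = 0.00423) and -1.62 ± 0.34 in F1 pigs (adjusted p = 0.000643). The estimates in CR and LW pigs were -0.49 ± 0.35 and -0.37 ± 0.34 and did not pass. Probe O9216, of uncertain strand, also fell (-0.21 ± 0.08, adjusted p = 0.0428). The other 4 GPX3 probes correlated with each other over the pigs with Pearson r of at least 0.95, but with A_72_P637182 at 0.70 to 0.71. In 3 pigs, 1 each of CR TN, LW TN and LW HS, A_72_P666610 was between 6.46 and 6.88 while A_72_P637182 was between 9.10 and 9.84, and over the other 32 pigs the correlation of both probes was 0.83 (Spearman rho 0.80).

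**Figure D3:**
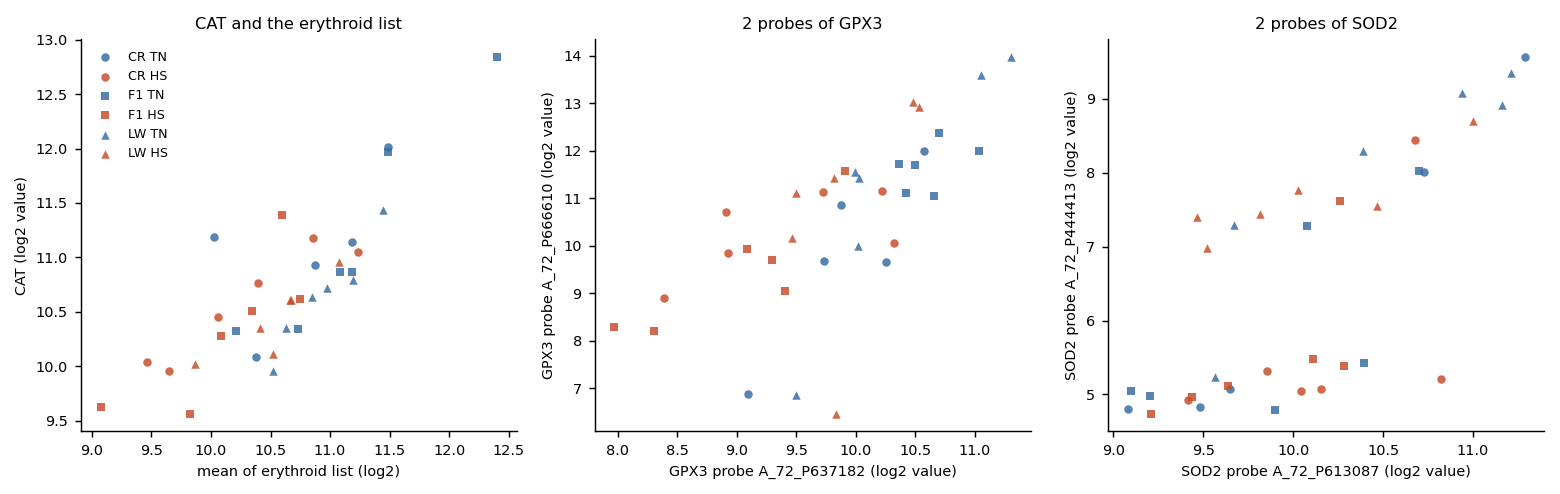
Each point is a pig (circles CR, squares F1, triangles LW, blue TN, orange HS) and all axes are log2 values. CAT rises with the mean of the erythroid list (left), 3 pigs lie below the relation of the GPX3 probes (centre), and the SOD2 probe A_72_P444413 leaves a gap between 5.48 and 6.98 that the brightest SOD2 probe does not show (right).

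GPX4, which reduces lipid peroxides in membranes, rose under HS with every probe. Its brightest probe read 12.27, 12.05, 12.50, 12.53 and 12.33 in CR TN pigs and 11.85, 12.42 and 12.74 in CR HS pigs. F1 values were 12.15, 12.28 and 12.44 under TN and 12.33, 12.59 and 12.80 under HS, and 5 of 6 F1 HS pigs were above every F1 TN pig. LW values were 12.27, 12.46 and 12.65 under TN and 12.51, 12.63 and 12.96 under HS. Of the 18 HS pigs, 16 were above the TN mean of their breed. The rise was 0.19 ± 0.07 (adjusted p = 0.0291), which is a 1.14-fold change, and the 5 probes rose by 0.19 to 0.29 (adjusted p = 0.00559 to 0.0291). Within the 5 slides the brightest probe differed by -0.060 to 0.29, positive in 4. The mean of the T cell markers, 7 of 10 measured, went from 10.50 under TN to 10.82 under HS in F1 pigs, from 10.56 to 10.62 in CR and from 10.94 to 10.95 in LW pigs. That of the B cell markers, 5 of 8 measured, went from 9.55 to 9.99 in F1, from 9.89 to 10.03 in CR and from 9.71 to 9.95 in LW pigs. The part of either list in the GPX4 result was not tested. The probes A_72_P646221 and A_72_P232212 have the same sequence and gave 0.29 and 0.27. Within F1 pigs all 5 probes rose (0.30 to 0.44), and the estimates were positive but not past the threshold in CR (0.05 to 0.19) and LW pigs (0.21 to 0.27).

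Glutathione reductase, which restores reduced glutathione, had 2 probes. GSR ranged from 5.50 to 6.95 over the 35 pigs and differed by 0.07 ± 0.12 under HS (adjusted p = 0.675). Its groups overlapped in all breeds, with estimates of 0.18 in CR, 0.30 in F1 and -0.27 in LW pigs.

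Of thioredoxin, 1 of 5 probes passed the test, and its brightest did not. TXN, the small dithiol protein that hands electrons to peroxiredoxins, read 11.38, 11.04, 10.54, 11.08 and 11.60 in CR TN pigs and 10.30, 10.93 and 11.11 in CR HS pigs. F1 values were 9.80, 10.89 and 11.43 under TN and 9.94, 10.60 and 10.91 under HS. In LW pigs they were 10.59, 11.10 and 12.07 under TN and 10.46, 10.64 and 11.59 under HS. The brightest probe differed by -0.33 ± 0.15 (adjusted p = 0.0782), and 16 of 18 HS pigs were not above the TN mean of their breed. The estimates in CR, F1 and LW pigs were -0.35, -0.30 and -0.35, and none passed within a breed. The TXN probe that fell was O7867 (-0.24 ± 0.08, adjusted p = 0.0252). It has the opposite strand of the brightest probe, so what it measured is uncertain. None of the TXN probes with an A_72 name passed (adjusted p = 0.0585 to 0.175). O7867 was well above background on 33 arrays, and under the filter that asks for all 35 arrays it was not tested.

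TXNRD1, the selenoenzyme that reduces thioredoxin, rose with 5 of its 6 probes in the table by 0.25 to 0.33. The exception was the brightest, A_72_P009866, with 0.11 ± 0.06 (adjusted p = 0.155), while the mean over the 6 probes rose by 0.24 ± 0.06 (adjusted p = 0.00239). The largest estimate came from A_72_P455657, which read 7.66, 8.16, 7.94, 7.58 and 8.25 in CR TN pigs and 8.02, 8.14 and 8.39 in CR HS pigs. F1 values were 7.56, 8.01 and 8.63 under TN and 8.17, 8.20 and 9.02 under HS, and LW values were 7.55, 7.92 and 8.37 under TN and 7.93, 8.32 and 8.58 under HS. Lowest values shifted more than highest values, and the groups overlapped. The rise was 0.33 ± 0.10 (adjusted p = 0.00982). Its estimate without F1 pigs was also 0.33 (SE 0.10, adjusted p = 0.196).

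The TXNRD1 probes formed sets that varied separately from pig to pig. A_72_P455657 and O14115 correlated with each other (Pearson r 0.90, Spearman rho 0.89), and A_72_P163096, A_72_P499028 and A_72_P517550 correlated among themselves at 0.86 to 0.92. Between both sets r was 0.20 to 0.33. The brightest probe correlated with the set of 3 at 0.38 to 0.48 and with the other pair at 0.04 and 0.06. The set of 3 rose within F1 pigs (0.44 to 0.49, adjusted p = 0.00461 to 0.0144), with estimates of 0.22 to 0.29 in CR pigs and -0.0049 to 0.077 in LW pigs that did not pass. The brightest probe also passed within F1 pigs (0.25 ± 0.10, adjusted p = 0.0482), with 0.11 in CR and -0.03 in LW pigs. The pair had like estimates in all breeds, 0.23 and 0.26 in CR, 0.27 and 0.32 in F1 and 0.27 and 0.39 in LW pigs, none past the threshold within a breed.

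NFE2L2 had the smallest adjusted p of all members, on the probe of uncertain strand. O8761 read 7.85, 8.56, 8.10, 8.38 and 8.31 in CR TN pigs and 7.68, 7.93 and 8.56 in CR HS pigs. F1 TN pigs had 8.49, 8.72 and 9.08 and F1 HS pigs 7.65, 7.88 and 8.08, and these groups did not overlap. In LW pigs the values were 8.14, 8.39 and 8.57 under TN and 7.96, 8.21 and 8.43 under HS. The difference was -0.43 ± 0.09 (adjusted p = 0.00193), and -0.87 ± 0.13 within F1 pigs (adjusted p = 0.000211), against -0.23 ± 0.14 in CR and -0.16 ± 0.13 in LW pigs. It was negative within each of the 5 slides (-0.55 to -0.28).

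The other NFE2L2 probes pointed the other way. A_72_P055361 read 6.42, 6.22, 6.22, 6.24 and 6.45 in CR TN pigs and 6.32, 6.56 and 6.65 in CR HS pigs. F1 values were 5.87, 6.39 and 6.67 under TN and 6.35, 6.52 and 7.05 under HS, and LW values 6.16, 6.33 and 6.50 under TN and 6.41, 6.56 and 6.69 under HS. It rose by 0.22 ± 0.06 (adjusted p = 0.0090), with estimates of 0.21, 0.24 and 0.21 in CR, F1 and LW pigs. A_72_P229977, whose printed strand reads as coding sequence, differed by 0.20 ± 0.09 (adjusted p = 0.0691). These probes correlated with each other (Pearson r 0.55, Spearman rho 0.51) and with O8761 at -0.26 and -0.36 (rho -0.28 and -0.40). The mean over the 3 probes differed by -0.0036 ± 0.055 (adjusted p = 0.966), and the direction of NFE2L2 depends on the probe.

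**Figure D4:**
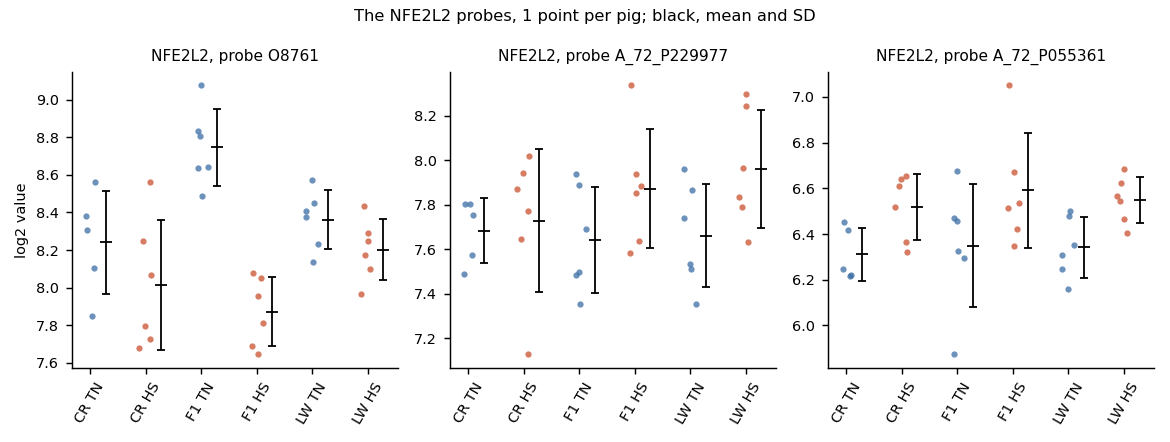
Log2 values (y axis) of the 3 NFE2L2 probes in the 6 groups (x axis), 1 point per pig, with the group mean and SD in black. O8761 is lower under HS, most in F1 pigs (8.49 to 9.08 under TN, 7.65 to 8.08 under HS), while the other probes have higher means under HS in each breed.

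Whether breeds responded differently was tested by the interaction of breed and climate. Within F1 pigs, 19 of 56 probes passed (9 higher, 10 lower), where 38.7% of all probes did (20.8% higher, 17.9% lower). At an unadjusted p under 0.05 there were 36 of 56 and 48.9%, respectively. The count of 19 was 9 to 28 with single pigs left out (9 without F1 HS replicate 5, 10 without F1 TN replicate 1 and 12 without F1 HS replicate 6) and 2 with the erythroid covariate. The shares of all probes under these settings are not given here. Within CR and within LW pigs 0 of 56 passed (1 and 2 at an unadjusted p under 0.05), and of all probes 0% passed and 8.87% and 8.71% had an unadjusted p under 0.05. The interaction itself passed for 0 of 56 probes and 0% of all probes by limma (14.9% of all probes at an unadjusted p under 0.05). The 2 member probes with an unadjusted p under 0.05 were NFE2L2 O8761 (adjusted p = 0.278) and GPX3 A_72_P637182 (adjusted p = 0.285). A difference between breeds in the response of these genes was thus not shown by this test. F1 TN arrays were also dimmer, with a 75th percentile of processed intensity of 149.9 ± 28.3 against 202 to 238 in the other groups, and the part of this in the F1 estimates was not tested.

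**Figure D5:**
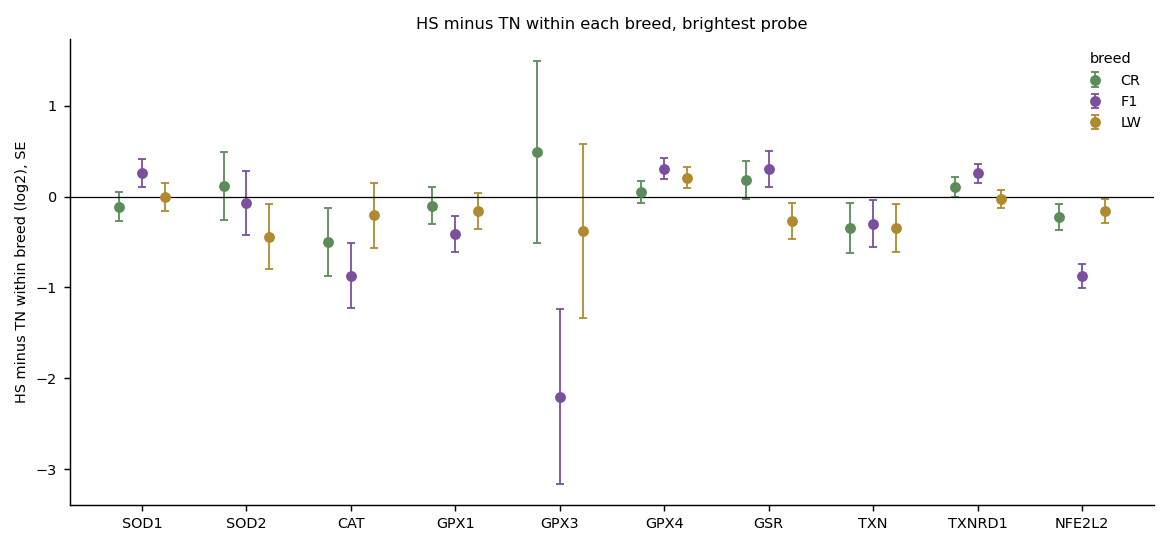
HS minus TN difference (log2, y axis, with SE) of the brightest probe of each gene (x axis) within CR, F1 and LW pigs. The F1 estimates of GPX3 (-2.20), NFE2L2 O8761 (-0.87) and CAT (-0.87) lie lowest. Those of GPX3 (adjusted p = 0.066) and CAT (adjusted p = 0.0516) did not pass by limma. O8761 is of uncertain strand, and the other NFE2L2 probes, not shown here, had 0.23 and 0.24 in F1 pigs. The TXN estimates are alike in all breeds (-0.35, -0.30 and -0.35).

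None of the 56 probes passed for F1 pigs against a parent breed by limma. F1 minus CR had 6 member probes at an unadjusted p under 0.05, against 4.95% of all probes, and 0.184% of all probes passed. All 6 were GPX1 probes, which correlated with each other over the pigs (Pearson r of at least 0.91). They are thus a single gene read repeatedly and not an excess across the members. F1 minus LW had 1, against 4.48%, and 0.0256% of all probes passed. F1 minus the mean of both parent breeds had 2, against 2.99%, and 0.0717% of all probes passed.

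Members were then compared with each other within groups, over 45 pairs of brightest probes. Only SOD1 and GSR varied together past the adjusted threshold (Pearson r 0.63, permutation p = 0.00031, adjusted p = 0.014), and by rank the relation did not pass (Spearman rho 0.53, permutation p = 0.0017, adjusted p = 0.0747). It was 0.66 without the 2 pigs farthest from the SOD1 median, and 0.54, 0.62, 0.80 and 0.25 within the 4 slides of at least 7 arrays. NFE2L2 O8761, the brightest probe but of uncertain strand, also correlated with the erythroid mean (r 0.53, permutation p = 0.005, adjusted p = 0.024, rho 0.41 with adjusted p = 0.095). Its r was -0.82 within 1 slide and 0.69 to 0.77 within the others. The other NFE2L2 probes correlated negatively with O8761 over the pigs. Their correlation with the erythroid mean was not tested, so this result is for O8761 only. No other member passed against that list.

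The genes whose pattern over the 35 pigs was most like a member, among 8534 genes, were found by Pearson r and are given as a description. For NFE2L2 O8761 these were TEX10, ENY2 and NDUFS1 (r 0.94 to 0.95), and for CAT they were SLC1A5, HEBP1 and PHACTR3 (0.85 to 0.88). GPX4 was nearest to DDT, SKAP1 and CD27 (0.85 to 0.89), TXN to RPS3A, EIF3E and SNRPE (0.88 to 0.91), GSR to MAP2K1, SDHD and PDCD7 (0.89 to 0.91) and SOD1 to POLE3, COPS5 and IARS (0.87 to 0.89). The nearest genes of SOD2, GPX1, GPX3 and TXNRD1 reached 0.62, 0.74, 0.60 and 0.76.

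Other genes of the pathway were read from 6 lists with 74 genes, of which 57 were measured. By their brightest probe 9 rose, 8 fell and 40 did not pass, and the median difference was 0.03. Among the brightest probes of all 8601 genes with a known symbol 39.6% passed (22.7% higher, 16.8% lower). The list of other superoxide and peroxide enzymes had 2 genes that rose and 2 that fell among 10. Among the peroxiredoxins, which reduce peroxides with the help of thioredoxin, PRDX1 (0.31 ± 0.08) and PRDX5 (0.25 ± 0.09) rose, while PRDX2 (-0.50 ± 0.15) and PRDX4 (-0.66 ± 0.13) fell. The other 5 PRDX4 probes had the opposite sign. TXNRD3 (0.33 ± 0.09) and GLRX3 (0.17 ± 0.06) rose in the thioredoxin and glutaredoxin list of 12 and none fell. Of 9 genes of glutathione synthesis and its turnover 1 rose and 3 fell. GSS, which completes glutathione synthesis, rose (0.27 ± 0.07), and the glutathione-degrading enzymes CHAC1 (-0.34 ± 0.09) and CHAC2 (-0.85 ± 0.19) fell, as did SLC3A2 (-0.53 ± 0.19, with 1 of 2 further probes of opposite sign). IDH2, a source of mitochondrial NADPH, was the gene that rose (0.24 ± 0.08) among 8 of NADPH supply. Of 9 NRF2 regulators, NFE2L1, a related factor, rose (0.38 ± 0.08) and MAFG, a partner of NRF2 on DNA, fell (-0.33 ± 0.11). The 9 NRF2 targets did not share a direction. BLVRA (0.35 ± 0.13) and ABCC1 (0.41 ± 0.10) rose, while BLVRB (-0.80 ± 0.25) and NQO1 (-0.57 ± 0.16, with its 2 further probes of opposite sign) fell.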

How the data were processed

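Whole-blood RNA of 35 pigs was labelled with Cy3 and hybridised to a custom porcine Agilent array. Per the file headers the arrays were read with Feature Extraction 10.10.1.1. The authors deposited raw spot intensity files and a table of log2 values of 39072 probes, which they had quantile normalized and filtered on expression. The deposited log2 values were used here without change. Groups came from the labels. Each probe was fitted with limma 3.58.1 in R 4.3.3 (lmFit, eBayes, two-sided), with an additive model of breed and climate, and with 6 group means for effects within breeds and the interaction. P-values were adjusted by Benjamini-Hochberg over the 39072 probes (threshold 0.05). Pen, slaughter, father and mother, random effects in the study, could not be fitted. Correlations used residuals from group means and 100000 permutations within groups (Python 3.11.15), adjusted over the 45 pairs of members or over 10 genes. All 10 genes are named, each by its brightest probe, pathway genes by the largest change past the threshold (at most 3 per direction and list), and 3 nearest genes per member. The 7 marker lists were read likewise. The members, lists and tests were chosen with earlier results of these data known. The scripts were tested on simulated data. Alternatives were other background corrections, scalings and filters, slide, array weights, an intensity trend, an erythroid covariate, and single pigs or F1 pigs left out. Arrays have no counting depth, and precision rests on how many were run. The files place no probe on a genome.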

Additional observations from a re-analysis of the deposited data

Results flagged for a closer look

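Of 60 groups checked, 10 genes in 6 groups each, 1 held a pig far from the rest. SOD1 in the CR TN pigs had a lowest value of 11.61, while the nearest pig was at 12.07, and this gap was 0.76 of the range of the 5 pigs. Chance alone flags about 1 group in 20. The same pig was the lowest of all 35 for GSR (5.50). With any single pig left out the SOD1 difference between HS and TN was 0.02 to 0.09 and did not pass the threshold.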

How the results depend on the processing

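The count of 24 member probes that passed for HS minus TN was 20 to 29 under the other background corrections, scalings and filters, with slide as a block, array weights or an intensity trend, and 17 to 29 with single pigs left out. With the erythroid list mean as a covariate it was 0, and without the F1 pigs it was 0. Within F1 pigs, 19 probes became 2 with the erythroid covariate and 9 to 28 with single pigs left out, with the counts of 9, 10 and 12 obtained without F1 HS replicate 5, F1 TN replicate 1 and F1 HS replicate 6. With array weights 1 probe passed within LW pigs and 7 passed for CR minus LW, with the share of all probes not given here. That contrast had 1 probe with the erythroid covariate and 0 to 5 with single pigs left out (5 without CR HS replicate 4, and 1 each without CR TN replicate 1, CR HS replicate 6 and LW TN replicate 6). The 45 pairs of members had 1 past the threshold, and 3 with the erythroid list mean also removed. The CAT difference of -0.53 was 0.10 with the erythroid covariate, 0.040 within slide 2 and 0.071 within slide 5, and the GPX4 difference of 0.19 was -0.060 within slide 5. The call of the brightest CAT probe was also lost without a filter, with 75th percentile scaling, with array weights and without the F1 pigs. Of the 10 CAT probes, 6, 9, 4 and 0 passed as lower under these settings, respectively. The GPX4 call was lost with the erythroid covariate (0.094) and without the F1 pigs (0.13). The other counts, within CR pigs, of the interaction and of F1 against CR, LW and their mean, stayed at 0 under all alternatives run. The cause of these changes was not tested. The counts with each distinct sequence once (23 over all pigs and 18 within F1) were an alternative chosen after seeing the data. Low signal limits the SOD2 probe A_72_P444413, well above background on 20 arrays. No paired analysis was possible, because TN and HS pigs were different animals and the labels give no litter by which to pair them. The labels carry no replicate numbers, and the numbers used here follow the order of the records.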
